A study of Mus musculus with 2 samples.

Results

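The genes described here code for carbonyl reductases and other enzymes that act on Dox or on the reactive products it leaves in cells. They were listed by name, as *Cbr1*, *Cbr2*, *Cbr3*, *Cbr4*, *Akr1b3*, *Akr1b8*, *Por*, *Aldh2*, *Ephx1* and *Ephx2*, and every probe set was taken whose platform annotation named exactly 1 gene and that gene was on the list. Of the 10 genes, 8 were found, on 12 probe sets, among 18193 genes and 34945 such probe sets on the array. No probe set in the annotation used was named for *Akr1b3* or *Por* alone, and they were not analysed here. In RefSeq the measured genes lie on chromosome 16 (*Cbr1* and *Cbr3*), 11 (*Cbr2*), 8 (*Cbr4*), 6 (*Akr1b8*), 5 (*Aldh2*), 1 (*Ephx1*) and 14 (*Ephx2*).

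RNA came from primary cardiomyocytes of mouse neonates (mNVCM, strain C57BL6/J, 2 days after birth), with 1 Affymetrix array for hAFS-CMHypo + Dox and 1 for Dox. hAFS-CMHypo is medium conditioned under hypoxia by stem cells of human amniotic fluid, pooled from several samples (the hypoxia and the pooling are stated in the methods, not in the labels), and Dox is the anthracycline doxorubicin. Both cultures spent 1 h in medium with 0.5% serum. The hAFS-CMHypo + Dox culture was then pre-incubated with the conditioned medium for 3 h and given 1 μM Dox for 6 h, and the Dox culture was given 1 μM Dox with no pre-incubation, for 21 h according to its labels and 6 h according to the methods. The conditioned medium and the labelled hours of Dox cannot be told apart in these arrays, and no culture without Dox was analysed here. The cells came from enzyme digestion of neonatal hearts, so other heart cells can be among them. Each condition had 1 array, so replicate error is unknown and no test was possible.

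Dox carries a side-chain ketone and a quinone ring. Carbonyl reductases, which belong to the short-chain dehydrogenases, and aldo-keto reductases reduce the ketone with NADPH and give the alcohol doxorubicinol, a metabolite known for its toxicity to heart muscle. Flavoenzymes such as cytochrome P450 reductase, the product of *Por*, pass single electrons to the quinone, and the semiquinone that forms hands them on to oxygen. The aldehydes that come from oxidized lipid are cleared by aldehyde dehydrogenases, and epoxides by epoxide hydrolases.

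Values are log2 expression after RMA, and differences are log2 ratios of hAFS-CMHypo + Dox over Dox, each gene being read at its brightest probe set over the 2 arrays. As a yardstick for noise within these arrays, an SD of 0.20 was found among the log2 ratios of probe sets that share a gene, over 5166 genes with signal at or above the median. This SD holds no variation between cultures. The median of all values was 5.10 and the 25th percentile 3.80. Levels of different genes are not ranked against each other, because probe sets bind with different strength. The median and the 25th percentile serve only as a rough guide to signal, and sums of marker levels are compared only between the arrays.

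None of the 8 enzymes differed by 2-fold between the arrays, in either direction. Of all genes, 0.506% were higher and 0.214% lower by 2-fold or more. At 1.5-fold the count was also 0 in both directions, against 2.32% of all genes higher and 1.52% lower. The 8 log2 ratios ran from -0.32 to 0.37, inside the 5th and 95th percentiles of all genes (-0.38 and 0.43). Of the 8, 4 lay above 0 and 4 below, and their median was -0.03, against 0.01 for all genes.

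Read against the SD between probe sets, *Akr1b8* and *Cbr2* were higher and *Cbr1*, *Ephx2* and *Cbr4* were lower on the hAFS-CMHypo + Dox array. *Cbr2* lay below the median of all values on both arrays, and with signal at or above that median only 1 enzyme, *Akr1b8*, was higher. Without that filter these are 2 of 8 genes higher, where 18.5% of all genes were higher by as much, and 3 of 8 genes lower, where 16.3% of all genes were lower. *Cbr3*, *Ephx1* and *Aldh2* stayed within it. These shares of 8 genes are not read as a result about the group. A single probe set stood behind 7 of the 8 genes, *Aldh2* being the exception, so for these 7 no second probe set on the arrays could be set beside the value.

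**Figure D1:**
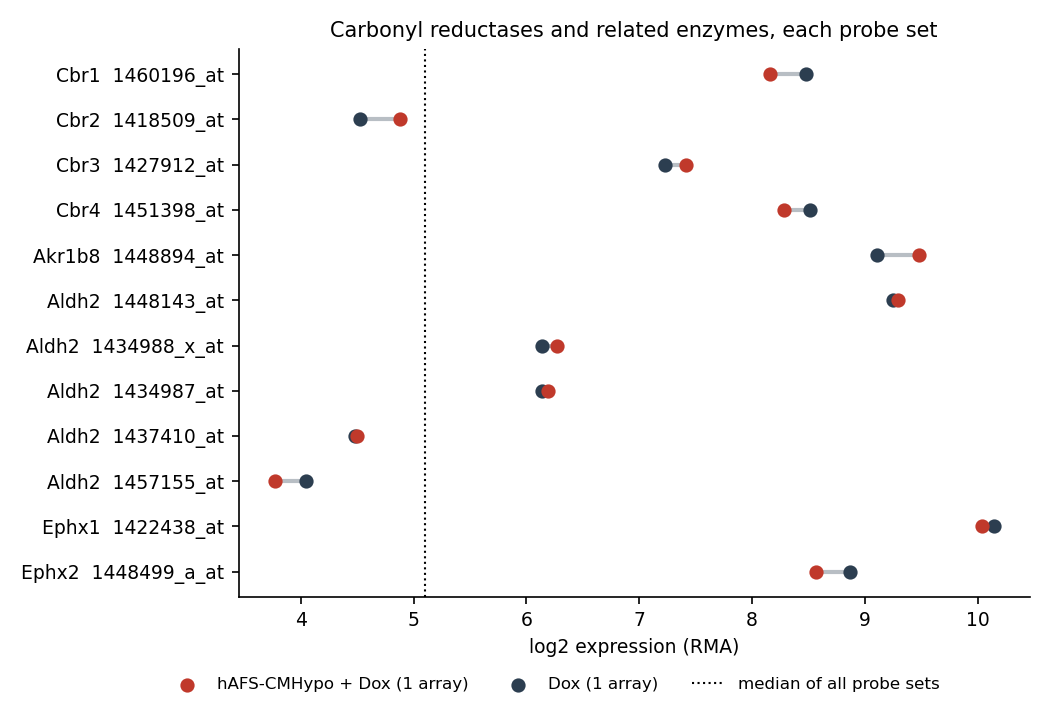
Log2 expression (RMA) of the 12 probe sets of the 8 measured enzymes on the hAFS-CMHypo + Dox array (red points) and the Dox array (dark points), 1 array per condition. A dotted vertical line marks the median over all values, 5.10. The red point is further right on 7 probe sets and further left on 5, and *Cbr2* and 2 probe sets of *Aldh2* lie left of that median.

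Of the carbonyl reductases, *Cbr1* and *Cbr4* were lower beyond the SD, *Cbr3* lay within it, and *Cbr2* had signal below the median of all values. *Cbr1* codes for the cytosolic carbonyl reductase best known for making doxorubicinol. Its log2 value was 8.16 on the hAFS-CMHypo + Dox array and 8.48 on the Dox array. The log2 ratio of -0.32 is 1.25-fold lower with hAFS-CMHypo + Dox and 1.58 times the SD between probe sets. Of all genes, 7.22% had a lower ratio.

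*Cbr3*, a close relative of *Cbr1* that also reduces carbonyls, had 7.41 with hAFS-CMHypo + Dox and 7.23 with Dox. The log2 ratio of 0.18 is less than the SD between probe sets, and 21.3% of all genes had a higher one. The log2 ratio of *Cbr3* stood 0.50 above that of *Cbr1*, a difference between 2 single probe sets that could not be tested.

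*Cbr2* codes for a carbonyl reductase of mitochondria that is abundant in mouse lung. Its log2 value was 4.88 with hAFS-CMHypo + Dox and 4.52 with Dox, a log2 ratio of 0.35. Both were lower than the median of all values, and the deposited values carry no detection call, so *Cbr2* is not shown to be above background on either array. The SD of 0.20 came from brighter probe sets, and over probe sets of any signal it was 0.22.

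*Cbr4* codes for a mitochondrial reductase that takes part in fatty acid synthesis and can reduce quinones. It had 8.29 with hAFS-CMHypo + Dox and 8.51 with Dox, a log2 ratio of -0.23 (1.17-fold lower), only slightly beyond the SD between probe sets at 1.11 times it. Of the carbonyl reductases, those whose ratio was below 0 were *Cbr1* and *Cbr4*, and those above 0 were *Cbr2* and *Cbr3*.

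*Akr1b8* had the highest log2 ratio of the 8. It codes for an aldo-keto reductase of the aldose reductase family that was first described as a product induced by fibroblast growth factor, and it reduces aldehydes that come from lipid. Its log2 value was 9.48 with hAFS-CMHypo + Dox and 9.11 with Dox. The log2 ratio was 0.37 (1.29-fold higher), or 1.81 times the SD between probe sets, and 6.98% of all genes had a higher ratio.

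*Aldh2*, the mitochondrial aldehyde dehydrogenase that oxidizes acetaldehyde and the lipid aldehyde hydroxynonenal, was the 1 gene with several probe sets. Its brightest probe set had 9.29 with hAFS-CMHypo + Dox and 9.25 with Dox, a log2 ratio of 0.04. Another probe set, of a type that may bind other transcripts, had 6.27 with hAFS-CMHypo + Dox and 6.14 with Dox (log2 ratio 0.13), and one more had 6.19 with hAFS-CMHypo + Dox and 6.14 with Dox (0.05). The remaining 2 were below the median of all values, with 4.50 for hAFS-CMHypo + Dox and 4.48 for Dox on one (0.02), and 3.77 for hAFS-CMHypo + Dox and 4.04 for Dox on the other (-0.28). Thus 4 of its 5 probe sets differed by less than the SD between probe sets. The exception was the dimmest, for which hAFS-CMHypo + Dox gave a signal under the 25th percentile of all probe sets.

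The epoxide hydrolases both had ratios below 0. *Ephx2* codes for the soluble epoxide hydrolase, which turns epoxides of arachidonic acid into diols that are less active on vessels and heart. It had 8.57 with hAFS-CMHypo + Dox and 8.87 with Dox, a log2 ratio of -0.31 (1.24-fold lower) that exceeds the SD between probe sets in size, and 8.07% of all genes had a lower one. Its only probe set is of a type that can match several transcripts of the gene. *Ephx1*, the microsomal epoxide hydrolase that detoxifies foreign epoxides, had 10.04 with hAFS-CMHypo + Dox and 10.14 with Dox. This log2 ratio of -0.11 lay within the SD between probe sets, and 29.0% of all genes had a lower one.

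**Figure D2:**
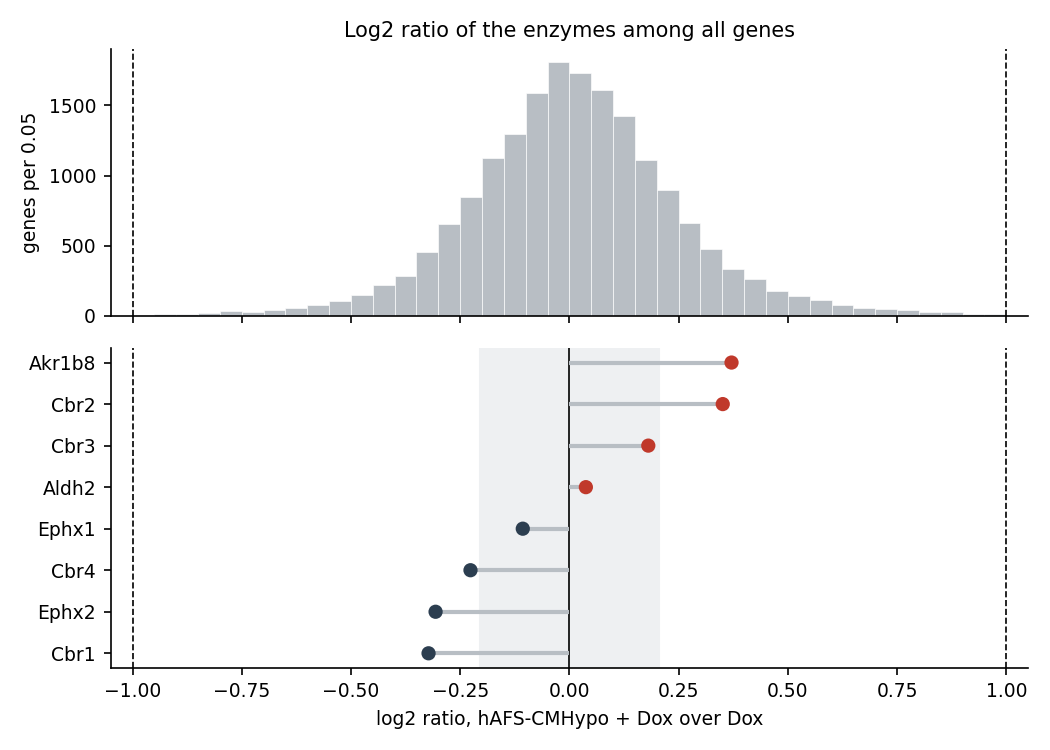
The upper panel gives the number of genes per 0.05 of log2 ratio (hAFS-CMHypo + Dox over Dox) for all genes inside 2-fold, and the lower panel the log2 ratio of each of the 8 measured enzymes, in red where above 0 and dark where below 0. The grey band spans 0.20 to each side of 0, the SD between probe sets, and 2-fold is drawn dashed; 3 enzymes lie inside the band, 5 outside it and none near the dashed lines.

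Both pairs of related genes that were looked at and lie beside each other in the genome had ratios of opposite sign, of which that of *Cbr3* was within the SD between probe sets. In RefSeq on GRCm38.p6, *Cbr1* and *Cbr3* follow each other on chromosome 16 with no protein-coding gene between them. *Setd4*, a methyltransferase gene on the far side of *Cbr1*, had 5.42 with hAFS-CMHypo + Dox and 5.69 with Dox (-0.27), and *Dop1b*, beyond *Cbr3* and the unmeasured *Gm52236*, had 6.18 and 6.06 in the same order (0.12). In the cluster of aldose reductase genes on chromosome 6, *Akr1b8* lies next to *Akr1b10*. *Akr1b10* had 9.70 with hAFS-CMHypo + Dox and 10.01 with Dox, a log2 ratio of -0.31, so that *Akr1b8* stood 0.68 above it. Among its 3 probe sets the highest ratio was 0.11. *Slc35b4* and *Bpgm*, the measured genes that flank the cluster, had log2 ratios of 0.36 and 0.34. These neighbours were chosen after the values were seen. Genes that are alike in sequence can share probes, and the sequences of the probes were not used here.

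**Figure D3:**
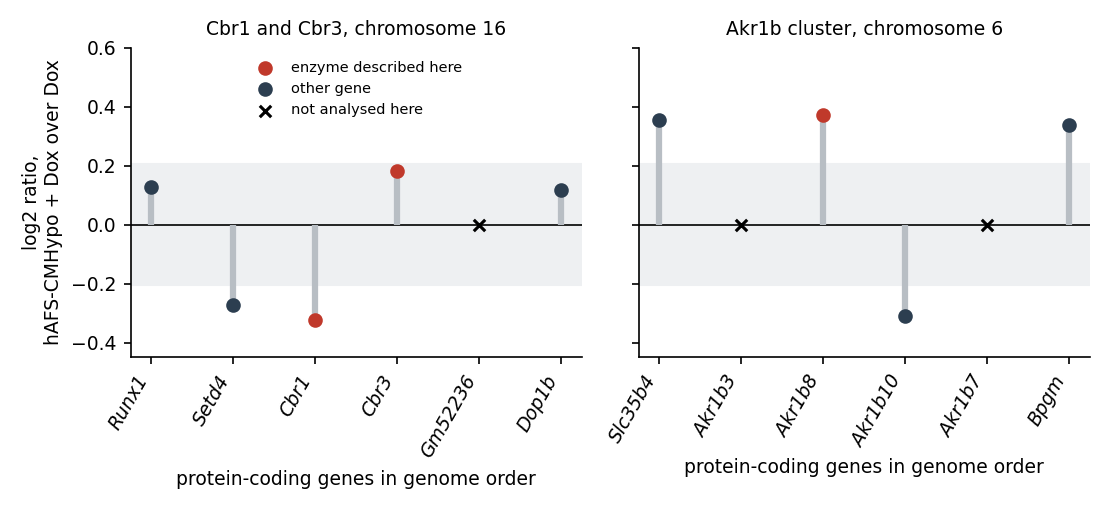
Log2 ratio (hAFS-CMHypo + Dox over Dox) of protein-coding genes in genome order around *Cbr1* and *Cbr3* (left) and across the *Akr1b* cluster (right), red for the enzymes described and dark for other genes. The grey band is the SD between probe sets, 0.20, and a cross on the zero line marks a gene not analysed here; *Cbr1* lies at -0.32 beside *Cbr3* at 0.18, and *Akr1b8* at 0.37 beside *Akr1b10* at -0.31.

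The DNA just before 3 of these genes is shown because *Cbr1*, *Cbr3* and *Akr1b8* are the listed enzymes in those pairs, and because human genes of these families are known as targets of NRF2, which answers oxidants through antioxidant response elements, and of the aryl hydrocarbon receptor (AHR), which answers foreign ring compounds through xenobiotic response elements. Each line holds the 60 bases before the annotated start, from RefSeq on GRCm38.p6, plus strand, 5′ to 3′. Capitals mark the core of the xenobiotic response element, GCGTG or its reverse complement. The stretches are chr16:93607777-93607836 for *Cbr1*, chr16:93683159-93683218 for *Cbr3* and chr6:34354086-34354145 for *Akr1b8*.
Cbr1: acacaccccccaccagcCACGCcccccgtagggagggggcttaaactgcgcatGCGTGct
Cbr3: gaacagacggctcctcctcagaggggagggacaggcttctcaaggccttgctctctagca
Akr1b8: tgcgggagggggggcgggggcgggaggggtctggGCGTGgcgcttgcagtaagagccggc

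The core was present 2 times before *Cbr1*, 1 time before *Akr1b8* and not before *Cbr3* in these 60 bases. Of 32851 stretches of the same place and length in the RefSeq table, 10.1% held it on either strand. In the longer promoters of 300 bases (250 before the start and 50 after), held for 7 of the 10 genes, it was found for *Cbr1*, *Akr1b8* and *Por*, against 32.4% of all promoters. The core of the antioxidant response element, TGACNNNGC, was in none of the 7 promoters on either strand, against 12.4% of all promoters. A match is a run of letters and not a site shown to be bound, and a link between matches and log2 ratios was not tested.

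Beside the 8 enzymes, 11 further lists were read, the last being housekeeping genes and the others related genes. Together they held 170 measured genes outside the 8. Of these, 1 was higher and 2 were lower by 2-fold or more. Beyond the SD between probe sets, 28 (16.5%) were higher, where 18.5% of all genes were, and 46 (27.1%) were lower, where 16.3% of all genes were. Their median log2 ratio was -0.02, against 0.01 for all genes. The same shares of all genes stand behind the counts of each list and of the markers given next, and no list was tested. The lists were chosen with earlier results of these data known, so their shares are not read as a result about these genes.

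The other aldo-keto reductases and short-chain dehydrogenases, the families of the enzymes that make doxorubicinol, had no member past 2-fold. Of 14 other aldo-keto reductases, 1 was higher and 4 were lower beyond the SD (median -0.08), and 9 lay below the median of all values on both arrays. Beside *Akr1b10*, *Akr1e1* had 7.60 with hAFS-CMHypo + Dox and 7.89 with Dox (-0.30), and *Akr7a5*, which reduces succinic semialdehyde, had 10.62 and 10.70 in the same order (-0.08). Of 31 other short-chain dehydrogenases, 3 were higher and 10 lower beyond the SD (median -0.09). Those with the largest size and enough signal were *Dhrs7*, at -0.85 (9.12 with hAFS-CMHypo + Dox and 9.98 with Dox, with a highest value of 0.04 among 3 probe sets), *Dhrs11*, at -0.47, and *Dhrs7c*, a gene of striated muscle, at -0.41.

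Among 22 other quinone reductases, which include those that donate single electrons, 2 were higher and 8 lower beyond the SD (median -0.11), and none reached 2-fold. *Aox1*, aldehyde oxidase, had -0.81, with a value of 4.36 for hAFS-CMHypo + Dox that lay below the median of all values, against 5.16 for Dox. *Ptgr2*, a prostaglandin reductase, had -0.58 (up to 0.13 among 6 probe sets), and *Xdh*, xanthine dehydrogenase, which can reduce Dox, had 0.35 (7.16 with hAFS-CMHypo + Dox and 6.81 with Dox). *Nqo1*, which reduces quinones without a semiquinone step, had -0.28 (7.89 with hAFS-CMHypo + Dox and 8.17 with Dox).

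At the brightest probe set of each gene, the enzymes that take electrons from the product of *Por* held both the highest and the lowest ratio among these lists. Of 28, 7 were higher and 7 lower beyond the SD (median 0.06), with 1 past 2-fold in each direction. *Cyp1b1*, a P450 that the AHR induces, had 8.37 with hAFS-CMHypo + Dox and 7.23 with Dox, a log2 ratio of 1.13 (2.19-fold higher), the highest of 3 probe sets, of which the lowest had 0.07. *Cyp39a1*, an oxysterol hydroxylase, had 8.10 with hAFS-CMHypo + Dox and 9.34 with Dox (-1.24, or 2.36-fold lower). *Hmox1*, heme oxygenase, had 10.25 with hAFS-CMHypo + Dox and 9.68 with Dox (0.57).

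Of 18 aldehyde dehydrogenases other than *Aldh2*, 5 were higher and 6 lower beyond the SD (median 0.01). Among the higher ones, *Aldh1a3* had 0.21, but up to 1.24 among its 3 probe sets. *Aldh1a1*, which makes retinoic acid, was 2.22-fold lower with hAFS-CMHypo + Dox (6.02, against 7.17 with Dox; log2 ratio -1.15). *Aldh1a2*, which also makes retinoic acid and marks the epicardium, had 7.15 with hAFS-CMHypo + Dox and 6.40 with Dox (0.75), and *Aldh5a1*, of the breakdown of GABA, had -0.50 (4.62 with hAFS-CMHypo + Dox, below the median of all values, and 5.12 with Dox). Of 15 other epoxide hydrolases and enzymes that make epoxides from fatty acids, 13 lay below the median of all values on both arrays, 2 were higher and 4 lower beyond the SD, and none reached 2-fold (median -0.01). *Lta4h*, a leukotriene hydrolase of the epoxide-opening kind, had -0.63 (10.20 with hAFS-CMHypo + Dox and 10.83 with Dox, and -0.04 at the highest of 3 probe sets), and *Cyp2c38*, whose Dox value was below the median of all values, had 0.21.

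Of 19 NRF2 targets outside the 8 enzymes, 5 were higher and 2 lower beyond the SD and none reached 2-fold (median 0.07), with *Slc7a11*, a cystine carrier, at 0.69 from a Dox value of 4.43 below the median of all values, *Hmox1* at 0.57, and *Gsta4*, a glutathione transferase for lipid aldehydes, at -0.38. Of 7 genes of the AHR battery, 5 were higher and 1 lower beyond the SD, with a median of 0.24, the highest of the 11 lists. Of these 7, 4 lay below the median of all values on both arrays, and 3 of the 5 higher ones lay below the 25th percentile on both. Some of the 7, such as *Cyp1b1* and *Nqo1*, are also on other lists. Beside *Cyp1b1* and *Nqo1*, *Tiparp* had 0.24 (as low as -0.10 among 3 probe sets). Of 11 genes listed under NADPH supply, whose use of NADP was not checked here, 2 were higher and 4 lower (median -0.09). *H6pd*, which makes NADPH inside the endoplasmic reticulum, had 0.76 on its 1 probe set. *Idh1*, which makes it in the cytosol, had -0.54 (9.90 with hAFS-CMHypo + Dox and 10.44 with Dox), and *Me2* had -0.29. Of 7 conjugating enzymes, 1 was higher and 2 lower (with *Nat2* at 0.05 and *Gusb* at the median, near 0). In all, 5 of the 7 lay below the median of all values on both arrays, among them the 1 higher and the 2 lower. All 9 housekeeping genes lay within the SD, between -0.11 for *B2m* and 0.10 for *Pgk1*, with *Hprt* at 0.09.

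**Figure D4:**
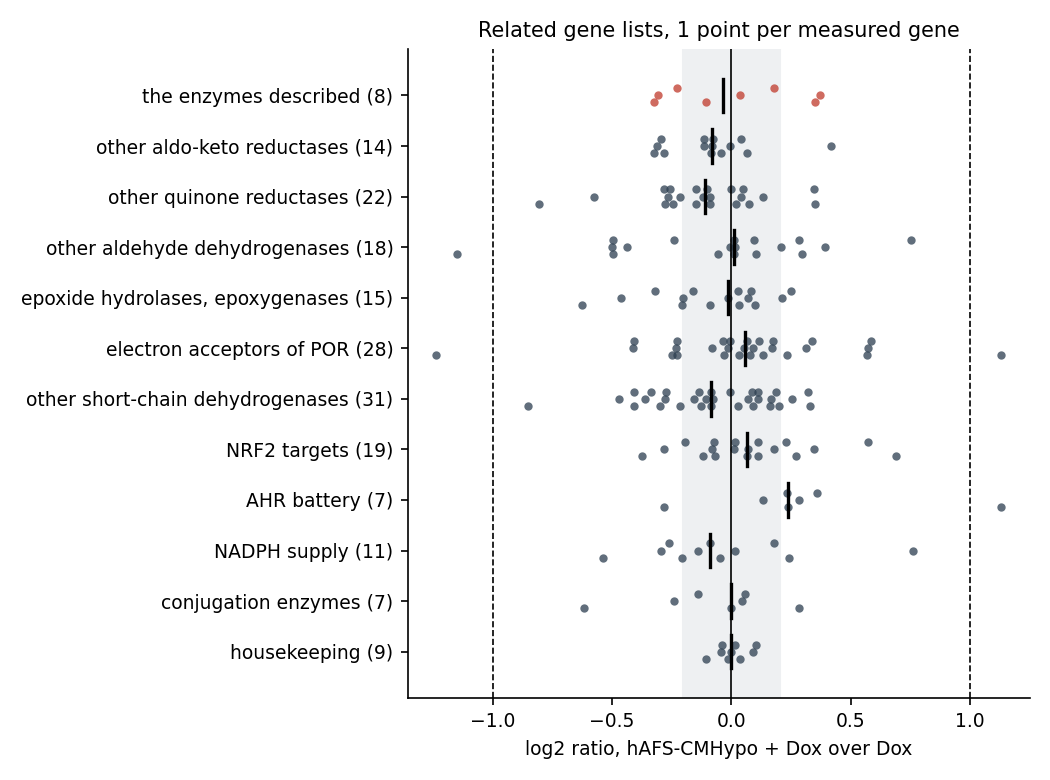
Log2 ratio (hAFS-CMHypo + Dox over Dox) of the 8 measured enzymes (red) and of each measured gene of 11 further lists (dark), housekeeping genes among them. A black bar is the median of each list, and the number of genes is in parentheses. Points are spread up and down only to keep them apart. The grey band spans 0.20 to each side of 0, the SD between probe sets. 2-fold is drawn dashed, and *Cyp1b1* passes it on the right and *Cyp39a1* and *Aldh1a1* on the left.

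The markers of cardiomyocytes were strong on both arrays, with log2 values of at least 9.78 on the hAFS-CMHypo + Dox array and at least 10.05 on the Dox array for all 12 genes. Markers of other heart cells were read only against the median of all values, since there was no detection call. None of 10 fibroblast, 10 endothelial or 6 epicardial markers lay below the median of all values on both arrays, and 2 of 12 macrophage markers (*Cd163* and *Cx3cr1*) and 1 of 8 markers of smooth muscle and pericytes (*Myh11*) did. Fewer cells of a type and less RNA per cell cannot be told apart in such arrays. Beside the lower values of *Cbr1*, *Cbr4* and *Ephx2*, 4 of 12 cardiomyocyte markers were lower beyond the SD and none was higher, and the log2 of their summed linear values was 17.70 with hAFS-CMHypo + Dox and 17.81 with Dox. Beside the higher value of *Akr1b8*, 5 of 12 macrophage markers were higher and none lower (12.43 and 12.44 in the same order), as were 3 of 8 markers of smooth muscle and pericytes (15.21 and 15.14), while 3 of 10 fibroblast markers were higher and 4 lower (14.04 and 14.05). Each sum adds the same probe sets on both arrays and is carried by the brightest of them, such as *Lyz2* among the macrophage markers (11.80 with hAFS-CMHypo + Dox and 11.91 with Dox), so it says little about the dimmer markers. Of the 5 higher macrophage markers, *Csf1r* had a ratio as low as -0.14 among 3 probe sets and *Ptprc* -0.09 among 2. The others, *Adgre1*, *Mrc1* and *Cd14*, had 1 probe set each. *C1qc*, at -0.20, lay only just within the SD, and *Ryr2* of the cardiomyocyte markers, at -0.21, only just beyond it. Of the fibroblast markers, *Lum* was 2.14-fold higher (1.10, 1 probe set) and *Tcf21* 2.04-fold lower (-1.03) with hAFS-CMHypo + Dox. *Tcf21* and *Col1a1* (-0.29) reached 0.18 and 0.22 on another probe set. *Ddr2* (-0.75) reached -0.05, and *Pdgfra* (0.79) fell to -0.05. Of 10 endothelial markers 1 was lower and none higher (11.50 and 11.43), and of 6 epicardial markers 3 were higher and 3 lower (10.25 and 10.38). Some of these differed between probe sets. *Flt1* (0.11) ran up to 0.55 and *Egfl7* (0.08) down to -0.59, each among 4 probe sets. Of the lower epicardial markers, *Upk1b* (-0.30) ran up to 1.01 among 4 and *Upk3b* (-0.33) up to 0.04 among 2. Of the 4 markers of liver cells and of lung club cells, where *Cbr2* and *Ephx1* are abundant, 3 lay below the median of all values on both arrays, among them *Alb* and *Scgb1a1*, and 1 was higher and 1 lower (6.72 and 6.79). The part of cell composition in the ratios of the 8 enzymes was not tested.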

How the data were processed

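RNA of mNVCM was hybridized to 2 Affymetrix arrays, 1 for each condition. The authors summarized each probe set by RMA with quantile normalization, and the deposited log2 values entered all steps unchanged. The sources used here do not name the software version. The log2 scale was inferred from the range of the values, 2.37 to 14.99 on the hAFS-CMHypo + Dox array. Quantile normalization gives both arrays nearly the same distribution (medians 5.10 and 5.10), so a shift shared by all genes would not be seen. No column of values was left unused.

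Of 45101 probe sets, 34945 had 1 gene symbol, and 34741 of them were matched through the Entrez ID to RefSeq genes on GRCm38.p6. Probe sets with several genes (932), with none (9160) and the 64 controls were left out of genes. Coordinates are printed only for RefSeq promoter sequences.

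Log2 ratios were computed for each probe set and for 18193 genes. Counts used the 2-fold threshold of the methods and, chosen after seeing the data, the SD between probe sets of a gene (0.20, probe sets at or above the median signal). There was no test, since each condition had 1 array, and their number limits the precision. The steps were tested on simulated data. The enzymes and lists were chosen with earlier results of these data known. The genes named are all the listed enzymes and, of each related list, up to 3 genes with the largest ratios whose higher array reached the median of all values. Genome neighbours, *Nqo1* among the quinone reductases and *Aldh1a3* were added after the values were seen, as were the cell markers named. Alternatives were 1.5-fold and 3-fold thresholds, filters on signal, centring, lowess (span 0.3), leaving out less specific probe sets, and the mean or the most changed probe set of a gene. The work was done with matplotlib 3.10.9, statsmodels 0.14.6, pandas 2.3.3 and numpy 2.4.6 under Python 3.11.15.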

Additional observations from a re-analysis of the deposited data

How the results depend on the processing

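No paired analysis was possible because each condition had 1 array, and for the same reason no array could be left out. Under the alternatives none of the 8 enzymes reached 2-fold, at 1.5-fold or 3-fold either. All kept their sign in each alternative that gave a value, except *Aldh2*, which had -0.01 with the mean of its probe sets and -0.28 with its most changed one. The other 7 genes have a single probe set, so most alternatives could only return the same value or drop the gene. Only centring and lowess could move their ratios. The range was -0.34 to -0.32 for *Cbr1* and 0.36 to 0.37 for *Akr1b8*. The median of the enzymes ranged from -0.17 to 0.04. *Cbr2* dropped out with a filter at the median signal, which leaves 1 enzyme higher by more than the SD, and *Ephx2* without the less specific probe sets. Of the genes on the 11 lists, those higher by 2-fold numbered 0 with the mean of all probe sets, 2 with the most changed probe set, 5 at 1.5-fold and 0 at 3-fold. Those lower by 2-fold (2 genes) numbered 6 at 1.5-fold and 0 at 3-fold. With signal at or above the median, the epoxide list had a median of -0.63, from *Lta4h* alone. In all, 181 of 190 values under alternatives stayed within the SD between probe sets or within 1.5 times the count. Part of this total was fixed beforehand, because genes with a single probe set repeat their value under most alternatives. Likewise, a count of 0 at 2-fold must be 0 at 3-fold. The total is therefore not a measure of stability.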
